A study of Homo sapiens with 4 samples.

Results

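Compact sites at which 53BP1 and both phosphorylated forms of RNA polymerase II were found together numbered 1648, out of 61263 S5p regions on chromosomes 1 to 22 (2.69%). They were selected on the deposited region lists. An S5p region had to be 2000 bp wide or less, to meet exactly 1 53BP1 region and to meet at least 1 S2p region, with no S2p region it met wider than 1500 bp, where meeting means sharing 1 bp or more. Widths, overlaps and the enrichment values of the same lists therefore define these sites or come from the same measurements, and they are given as descriptions with no test. Of the 46234 compact S5p regions (2000 bp or less), 3.56% met all conditions (exact Clopper-Pearson 95% interval 3.40 to 3.74). Taken alone, exactly 1 53BP1 region was present in 7.50% of compact S5p regions, and S2p regions of 1500 bp or less, with none wider, in 17.0%.

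RNA polymerase II carries a long C-terminal tail of repeats whose phosphorylation follows the transcription cycle. Serine 5 is phosphorylated when the enzyme leaves the promoter (S5p), and serine 2 becomes phosphorylated as it elongates (S2p), so S5p usually peaks near gene starts and S2p spreads along gene bodies and past gene ends. 53BP1 is a chromatin reader best known for its recruitment around DNA double-strand breaks, where it favours end joining, and it was first found as a partner of p53.

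The cells were MCF10A, an immortalised, non-tumour human breast epithelial line, grown in normal conditions and crosslinked with formaldehyde. ChIP with sequencing was done with antibodies to 53BP1, S5p and S2p, and each antibody had 1 library. The input library was not analysed here. All values thus describe 1 culture condition with no second group and no spread between replicates. Per-region intervals cover counting or ordering error over regions taken as independent, and for medians they are exact binomial intervals from order statistics. Read depth is unknown. Fold is the authors' enrichment over background, and it ranks regions within its own list only. Genes were not named because no annotation of the hg19 build was used here.

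The strongest 53BP1 signal among these sites was held by 15 members that stood apart from all the others. Their 53BP1 fold ran from 38.5 to 113 (median 58.1), whereas the other 1633 members reached at most 28.0 (median 6.30). All 15 also had S5p folds of 72.2 or more (median 129.6) and lay at or above percentile 98.97 of the S5p list and 89.1 of the S2p list. The separation was seen in the plot of folds, after the values were known. Of the 15, 8 had an S5p fold above that of every other member (largest 121). The other 7 had S5p folds of 72.2 to 120.03, and 33 members outside the 15 had S5p folds of 72.4 to 121 (median 79.6). The 53BP1 fold of these 33 ran from 3.55 to 19.6, below the 15 by the choice of ranks. The sets were not matched in S5p fold. For S2p the folds were 8.75 to 22.3 in the 15 and 4.31 to 12.4 in the 33, which overlapped.

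Chromosome 1 held 8 of these 15 sites, against 186 of all 1648 members and 6343 of the 61263 S5p regions. Of the 8, 5 lay within a stretch on the long arm. The top site of all, chr1:147735129-147736636 in hg19, had folds of 113 for 53BP1, 86.8 for S5p and 8.87 for S2p. In the same stretch, chr1:146555283-146557066 had folds of 60.9, 156 and 14.1 in the same order of marks. At chr1:149513388-149514879 they were 58.1, 143 and 14.0. The site chr1:149605204-149606566 had 55.1, 135 and 11.4, and chr1:147806005-147807806 had 51.3, 98.9 and 9.64. These 5 sites differed little in 53BP1 fold, apart from the first, whose S5p and S2p folds were the lowest of the 5. The stretch was not strong in 53BP1 throughout, since it also held the member chr1:147400103-147401243, with folds of 5.34, 91.2 and 9.46.

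Some of the other sites of this strength came in close pairs, and the rest were single. On the short arm of chromosome 1, chr1:45186588-45188085 and chr1:45195882-45197314 had nearly equal values, with folds of 60.03 and 71.1 for 53BP1, 120.03 and 129.6 for S5p, and 11.6 at both for S2p. On chromosome 17, chr17:56735731-56737208 had folds of 56.7 for 53BP1, 108 for S5p and 9.63 for S2p, and its neighbour chr17:56756219-56757511 had 49.0, 72.2 and 8.75. The 2 sites of each pair were close in 53BP1 and S2p fold, and those on chromosome 17 differed more in S5p fold. Single sites included chr15:65587735-65589278, which had the largest S5p fold (221) and the largest S2p fold (22.3) of all members and a 53BP1 fold of 82.3. The site chr1:210546542-210548069 had 79.8, 132 and 13.6 for 53BP1, S5p and S2p. On chromosome 2, chr2:88315171-88316900 had 77.1, 149 and 12.9, and chr2:121832095-121833444 had 38.5, 147 and 13.1. At chr2:121832095-121833444, then, a very high S5p fold went with the lowest 53BP1 fold of the 15. The remaining sites of the 15 were chr10:14227079-14228352, with folds of 45.7, 90.9 and 11.3, and a site on chromosome 8.

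**Figure D1:**
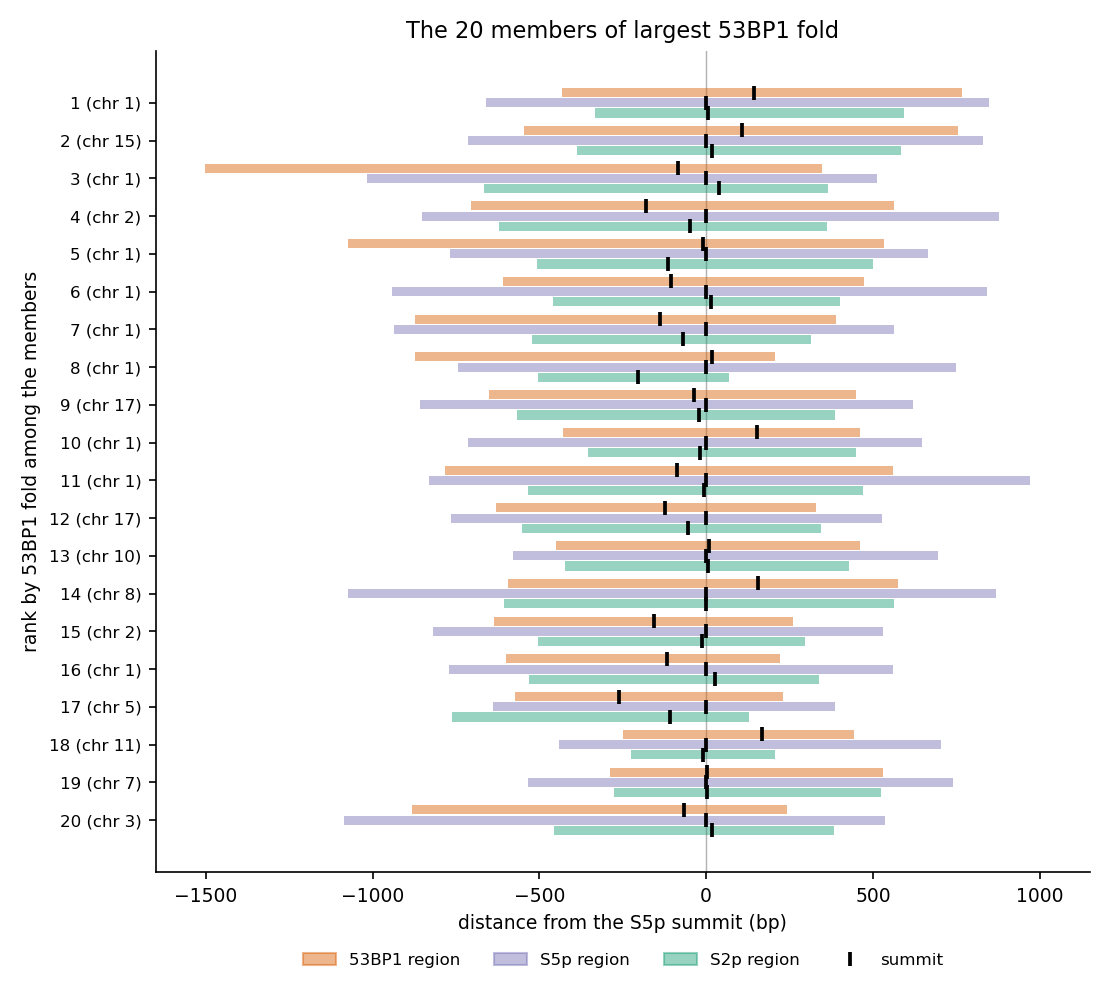
Extents (bars) and summits (black ticks) of the 53BP1, S5p and S2p regions at the 20 members of largest 53BP1 fold, in bp from the S5p summit, strongest at the top. The S5p and S2p ticks lie within 100 bp of each other at 17 of the 20 sites, while the 53BP1 tick is over 100 bp from the S5p summit at 12.

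In the 15 strongest sites as a set, the point of highest 53BP1 signal lay further from the S5p summit than in other members, though not at every site. The 53BP1 summit was a median of 108 bp from the S5p summit in the 15 (range 7 to 179), against 8 bp in the 33 members with S5p folds of 72.4 to 121 (range 0 to 221) and 48 bp in all members below rank 15. The offset exceeded 100 bp in 9 of the 15 and in 4 of the 33. It was short at others of the 15, as at chr1:45195882-45197314 (10 bp) and chr1:149513388-149514879 (16 bp). The S5p and S2p summits nearly coincided in both sets, with median distances of 18 bp in the 15 and 17 bp in the 33. The 53BP1 regions were also wider, with a median of 1169 bp in the 15 against 662 bp in the 33 and 557 bp in all members below rank 15. A wider region leaves more room for a summit to lie to the side, and the part of width in the offset was not tested. In 14 of the 15 the 53BP1 region was wider than the S2p region, as it was in 9 of the 33 and in 462 of the 1633 members below rank 15. The summit lay to the left of the S5p summit at some sites and to the right at others, and gene strand was not known. The next 5 members by 53BP1 fold, at 19.6 to 28.0, had offsets from 2 to 261 bp (median 118). Ranks 21 to 50 had a median of only 23.5 bp (6 to 38).

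Sites as strong in 53BP1 were present in the wide class as well. Among 4424 S5p regions over 2000 bp with 1 53BP1 region and S2p, 11 had a 53BP1 fold of 38.5 or more (0.249%). In the members 15 of 1648 did (0.910%). The limit of 38.5 is the lowest 53BP1 fold of the 15 themselves, so the member count was fixed by it. The 2 shares are therefore not a like comparison. None of the 1479 compact S5p regions with 1 53BP1 region and no S2p reached 38.5, and their largest 53BP1 fold was 25.7. None of them reached the S5p fold of the 15 either, since their largest was 62.3, whereas 48 members and 341 wide regions had an S5p fold of 72.2 or more. Of these, 15 members and 10 wide regions also had a 53BP1 fold of 38.5 or more, and the 15 themselves set both limits.

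**Figure D2:**
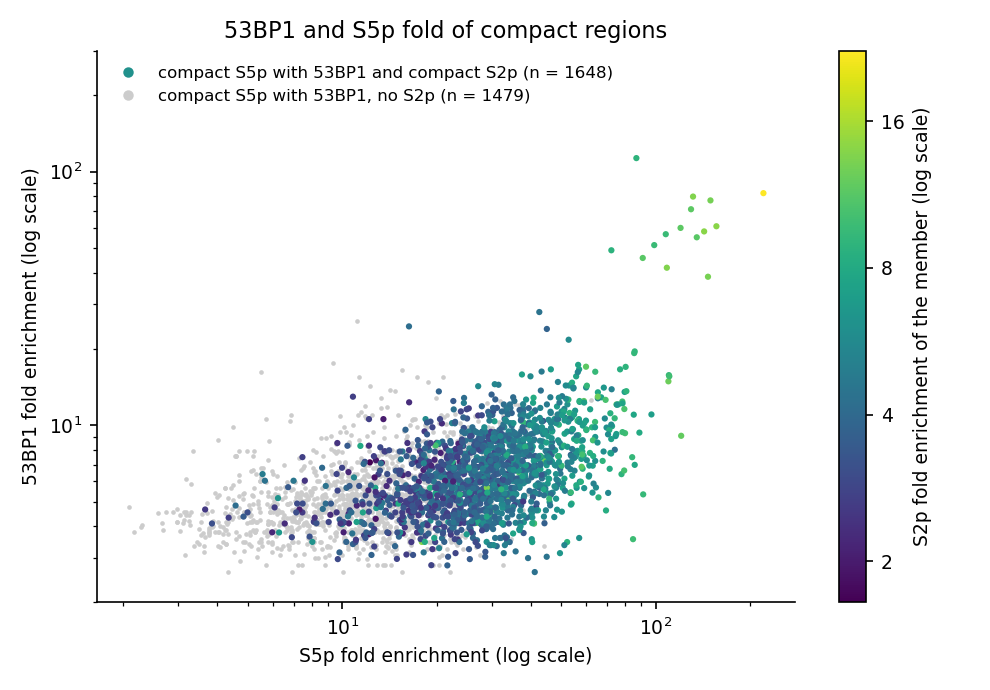
53BP1 fold (y axis) against S5p fold (x axis), both on log scales, for the 1648 members coloured by S2p fold and, in grey, the 1479 compact S5p regions with 53BP1 and no S2p. A group of 15 members at 53BP1 folds of 38.5 to 113 is separate from the other members.

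Most members ranked lower within the 53BP1 list than within the S5p list. The median S5p fold was 29.1 (interval 28.6 to 29.8, quartiles 21.8 and 38.0), and 1620 of the 1648 members (98.3%) lay among the strongest 20% of the S5p list by fold. Of all compact S5p regions, 10.4% did. This was not particular to the members, since 75.3% of compact regions with 53BP1 and no S2p did so, and 98.5% of S5p regions over 2000 bp with 1 53BP1 region and S2p. The median 53BP1 fold was 6.33 (6.20 to 6.45, quartiles 5.00 and 8.19), which is percentile 54.4 of the 53BP1 list. The median S2p fold was 4.20 (4.13 to 4.26, quartiles 3.32 and 5.40), or percentile 64.5 of the S2p list. The strongest 20% of the 53BP1 list held 294 of the members (17.8%), and that of the S2p list held 330 (20.02%). Among the strongest 20% of all 3 lists were 125 members (7.58%), and this share was not computed for the other classes. By rank within each list, these sites were therefore high for S5p and nearer the middle for 53BP1 and S2p. The lists differed in length, with 11370 regions for 53BP1, 61263 for S5p and 53422 for S2p. Percentiles are thus not like measures between them. The width limit on S2p is also part of the selection.

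The 3 folds moved together among the members. Spearman's rho was 0.689 between S5p and S2p fold, 0.467 between 53BP1 and S5p and 0.309 between 53BP1 and S2p, over 1648 regions. The points share the 3 libraries and any common background, so these values describe the lists and carry no test. At equal S5p rank, the rho of 53BP1 with S2p was -0.0207, while that of 53BP1 with S5p at equal S2p rank was 0.369. In the 4424 wide regions the S5p to S2p rho was lower, at 0.370, and the 53BP1 to S5p rho was 0.534. The S2p width limit held for members only, and S2p regions used in the wide class reached 161391 bp. S2p fold is thus not a like measure in the 2 classes.

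The share of compact S5p regions that carried all 3 marks rose steeply with S5p fold. Below a fold of 10 it was 45 of 42107 (0.107%, interval 0.0780 to 0.143), and from 10 to under 20 it was 14.2% (12.7 to 15.8). From 20 to under 30 it was 51.3% (48.2 to 54.3), from 30 to under 40 it was 73.3% (69.4 to 77.0) and from 40 to under 60 it was 79.3% (74.7 to 83.4). At 60 or more, 91 of 105 were members (86.7%, 78.6 to 92.5). All 105 held exactly 1 53BP1 region, and the rest differed from the members in S2p: 13 met an S2p region wider than the limit and 1 met none. Exactly 1 53BP1 region was present in 50.6% of compact regions at S5p folds of 10 to under 20 and in 94.5% at 30 to under 40. Of those with 1 53BP1 region, 28.0% and 77.6% were members at the same S5p folds.

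**Figure D3:**
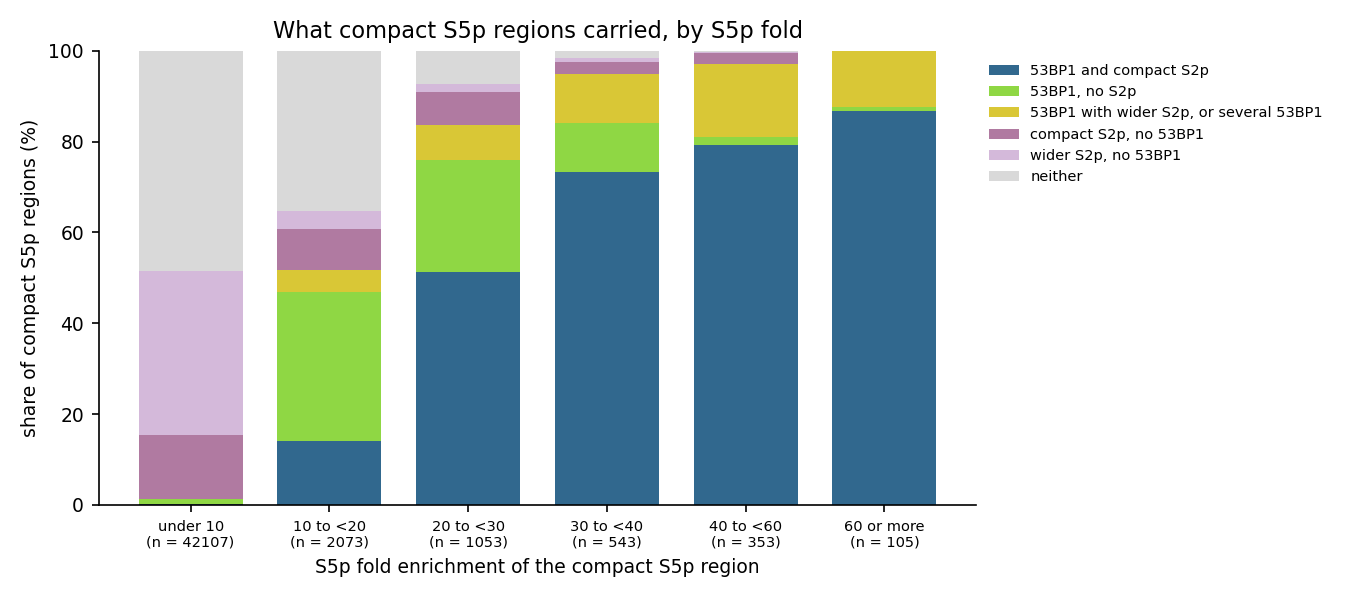
Share of compact S5p regions (y axis, %) that carried each combination of marks, by S5p fold (x axis), with the number of regions under each bar. Members, at the foot of each bar, take up 0.107% of the regions under a fold of 10 and 86.7% of those at 60 or more.

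Compact S5p regions with 1 53BP1 region but no S2p region numbered 1479. Compared with them, members had the higher 53BP1 fold, with a median of 6.33 (6.20 to 6.45) against 5.06 (4.91 to 5.15). They also had the higher S5p fold, 29.1 (28.6 to 29.8) against 13.0 (12.5 to 13.4), and the wider S5p region, 1528 bp (1506 to 1549) against 1126 bp (1095 to 1146). At like S5p fold below 40 the 53BP1 medians of members and of regions without S2p were close. Below a fold of 10 both were 4.53. At S5p folds of 10 to under 20 they were 5.20 (5.00 to 5.39, 294 members) and 5.13 (4.98 to 5.29, 678 regions without S2p). At 20 to under 30 they were 5.96 (5.67 to 6.10) and 5.97 (5.62 to 6.25), and at 30 to under 40 they were 6.92 (6.54 to 7.12) and 7.06 (6.16 to 8.01). The intervals overlapped in each of these ranges. At 40 to under 60 only 6 regions had no S2p, and at 60 or more only 1, too few to compare. The part of S5p fold in the 53BP1 difference over the whole classes was not tested.

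The wide class, S5p regions over 2000 bp with 1 53BP1 region and S2p, had 53BP1 medians close to those of members at like S5p fold. At S5p folds of 60 or more the medians were 10.3 (9.35 to 12.1) in members and 10.5 (10.1 to 10.7) in wide regions. They do not describe the few strongest sites, whose counts are given above. Members and wide regions had 53BP1 medians of 5.96 (5.67 to 6.10) and 5.99 (5.84 to 6.14) at S5p folds of 20 to under 30, and of 7.65 (7.45 to 8.06) and 8.00 (7.88 to 8.19) at 40 to under 60. S2p was lower in the members at the same S5p folds, with medians of 3.78 (3.67 to 3.85) against 5.05 (4.83 to 5.27) at 20 to under 30, and of 5.91 (5.67 to 6.09) against 7.43 (7.27 to 7.73) at 40 to under 60. The width limits on S5p and S2p are part of the selection, and wide regions had higher S2p folds in general, so this difference is not independent of the choice of sites.

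Compact regions with compact S2p and no 53BP1 region, 6199 in all, were weak in S5p. The median S5p fold was 29.1 in members and 3.28 (3.24 to 3.29) in these regions, of which 349 (5.63%) lay among the strongest 20% of the S5p list. S2p fold differed less, at 4.20 (4.13 to 4.26) in members and 3.20 (3.20 to 3.22) without 53BP1. At S5p folds of 20 to under 30, the S2p medians of members and of the 76 regions without 53BP1 were 3.78 (3.67 to 3.85) and 3.79 (3.46 to 4.06). Where a compact S5p region has no 53BP1 region, 53BP1 was not detected at this unknown depth, which does not show that it was absent.

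The 3 summits lay close together in a typical member. The 53BP1 summit was a median of 49 bp (43 to 53) from the S5p summit and 78.5 bp (71 to 89) from the S2p summit, and the S5p and S2p summits were 51 bp (47 to 56) apart. All 3 were within 100 bp of each other in 778 members (47.2%, 44.8 to 49.7). Distances over 500 bp occurred in 20 members for 53BP1 to S5p, in 94 for 53BP1 to S2p and in 64 for S5p to S2p. The chromatin was sonicated to fragments longer than these medians, which are therefore finer than the length of the fragments sequenced. The S5p summit was the middle one of the 3 in 803 members (48.7%), the 53BP1 summit in 411 (24.9%) and the S2p summit in 396 (24.03%), with ties in 38. In the 4424 wide regions, the S5p summit was again the middle one most often (50.8%), but the S2p summit was so in only 16.2% and the 53BP1 summit in 31.2%.

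**Figure D4:**
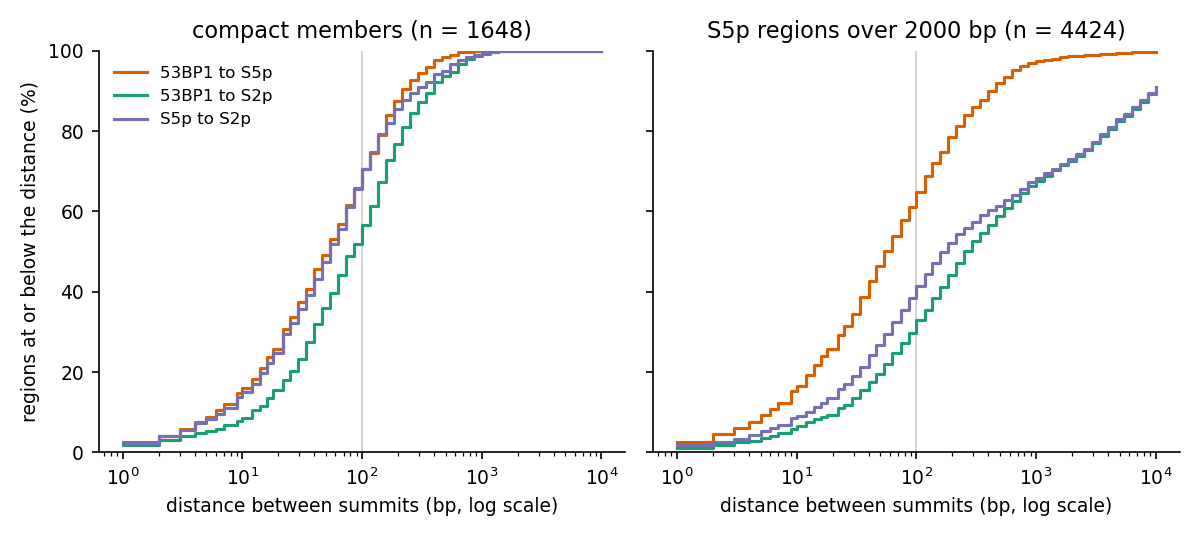
Cumulative share of regions (y axis, %) by distance between summits (x axis, bp, log scale) in the 1648 members (left) and the 4424 S5p regions over 2000 bp with 1 53BP1 region and S2p (right). The 53BP1 to S5p curves have like medians, 49 and 54 bp, while the curves that involve S2p reach far greater distances in the wide regions.

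In wide regions the S2p summit was the one that lay apart. The 53BP1 to S5p distance had a median of 49 bp (43 to 53) in members and 54 bp (51 to 57) in wide regions, although S5p regions had a median width of 1528 bp in members and 3867 bp in the wide class. The 53BP1 to S2p distance had a median of 78.5 bp in members and 249 bp (231 to 275) in wide regions, and its upper quartile was 174 bp in members and 2451 bp in wide regions. The width limit on S2p restricts distances to the S2p summit in members by construction. In wide regions the S2p region of largest fold was likewise used, at widths up to 161391 bp. Taking the nearest S2p summit instead was tried for members only, so the part of this choice in the wide-region distances was not tested. The 53BP1 summit lay nearer to the S5p than to the S2p summit in 1077 members (65.4%, 63.0 to 67.7) and in 3386 wide regions (76.5%, 75.3 to 77.8). Without S2p, in the 1479 compact regions with 53BP1, the 53BP1 to S5p median was 69 bp (62 to 76).

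Median summit distances were mostly shorter at stronger sites, although the 20 members of largest 53BP1 fold had a 53BP1 to S5p median of 113 bp (68 to 153). Across 5 equal groups of members ordered by S5p fold, from the weakest to the strongest, the median 53BP1 to S5p distance was 82, 53, 50, 37 and 34.5 bp, and the S5p to S2p distance was 103, 64, 53, 43 and 29.5 bp. Across 5 such groups by 53BP1 fold, the 53BP1 to S5p distance was 68, 59, 43, 45 and 35 bp. Summits of weak regions are placed from fewer reads, and the part of that in the trend was not tested.

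The 3 regions were nested in most members. The 53BP1 region lay wholly inside the S5p region in 1603 members (97.3%) and the S2p region did in 1525 (92.5%). Median widths were 559 bp (548 to 569) for 53BP1, 1528 bp for S5p and 684 bp (661 to 705) for S2p. In 1611 members (97.8%) all 3 regions shared at least 1 bp, and the stretch shared by all 3 had a median length of 458 bp (447 to 470). In the other 37 members 53BP1 and S2p met the same S5p region without a base common to all 3. In all but 11 members only 1 S2p region was met, and those 11 met 2. For these the S2p region of largest fold was used.

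Members lay at moderate distance from other polymerase regions. The gap to the next S5p region had a median of 5944 bp (5211 to 6512) in members. It was 14157 bp (12422 to 15787) in compact regions with 53BP1 and no S2p, 1284 bp (1240 to 1328) in compact regions with compact S2p and no 53BP1, and 985 bp (941 to 1030) in the wide class. An S2p region wider than 1500 bp lay within 5000 bp of 375 members (22.8%, 20.8 to 24.9), although none met one. The share was 12.8% (11.1 to 14.6) for compact regions with 53BP1 and no S2p, 60.4% (59.2 to 61.6) for those with compact S2p and no 53BP1, and 41.2% (39.8 to 42.7) for the wide class. The order of the classes was the same for the median gap to such an S2p region, at 18546 bp in members, 36975 bp without S2p, 3275 bp without 53BP1 and 7631 bp in the wide class. The gap to the next 53BP1 region had a median of 56288 bp (52720 to 60977) in members and 65307 bp (60394 to 71113) in regions without S2p. It was 21662 bp (20836 to 22601) in compact regions without 53BP1 and 41751 bp (39791 to 43797) in the wide class. Gaps to 53BP1 and S2p regions left out any that the site itself met. Regions without 53BP1 met none, so their gap runs to the nearest 53BP1 region of all and is not a like measure.

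**Figure D5:**
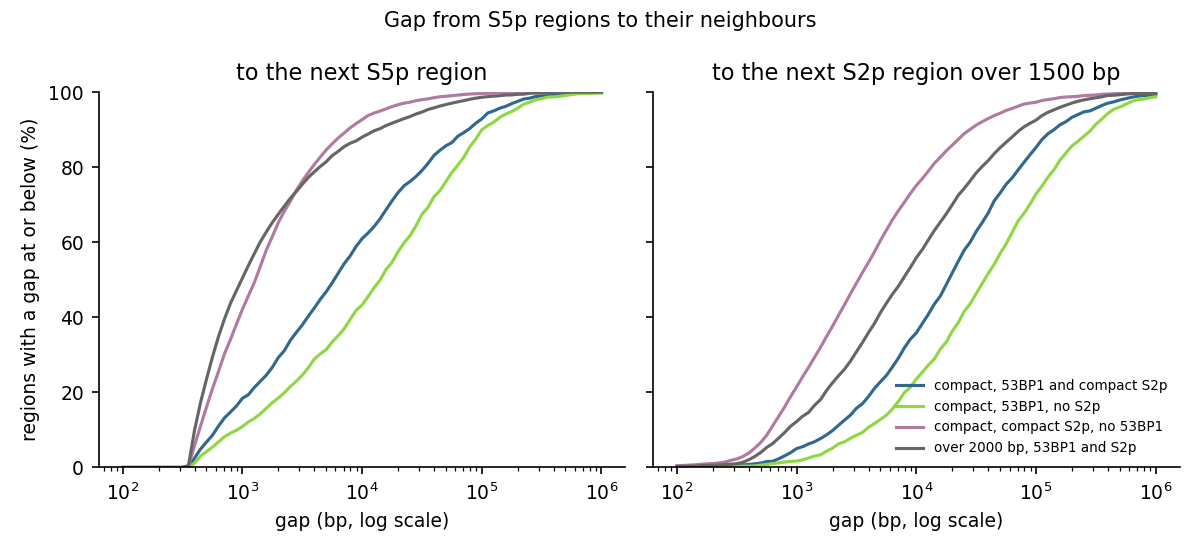
Cumulative share of regions (y axis, %) by gap (x axis, bp, log scale) to the next S5p region (left) and to the next S2p region over 1500 bp (right), for members and 3 other classes of S5p region. On both panels the members' median lies between that of compact regions with 53BP1 and no S2p, which have the longest gaps, and those of the other classes.

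Members lay in many 1 Mb windows, and close pairs were few in number. Of the 1 Mb windows, 1026 held a member and 614 of these held only 1. The most crowded, chr19:53000001-54000000, held 7. Windows with 6 lay on chromosome 11 (66000001 to 67000000), chromosome 19 (7000001 to 8000000), chromosome 3 (49000001 to 50000000) and chromosome 7 (6000001 to 7000000). The median gap between successive members was 704769 bp, and 16 gaps were 5000 bp or less. Neither the window counts nor these gaps were set beside those of all S5p regions, so they show neither clustering nor sparseness. The closest pair was on chromosome 6, where chr6:12008508-12010205 and chr6:12010864-12011974 were 658 bp apart, with S5p folds of 13.9 and 9.17 and 53BP1 folds of 3.78 and 4.43. On chromosome 13, chr13:100150461-100151858 and chr13:100152869-100154778 were 1010 bp apart, with S5p folds of 29.4 and 21.02 and 53BP1 folds of 6.62 and 4.54. A second pair on that chromosome, chr13:77899837-77901732 and chr13:77903084-77904244, differed more in S5p fold (56.7 and 12.8) than in 53BP1 fold (9.14 and 7.28).

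The yield of members was 2.69% of S5p regions over chromosomes 1 to 22, and it varied between chromosomes. Chromosome 7 had 113 members among 3303 S5p regions (3.42%, 2.83 to 4.10) and chromosome 12 had 101 among 3079 (3.28%, 2.68 to 3.97). The lowest yields were on chromosome 20, with 25 among 1957 (1.28%, 0.828 to 1.88), and on chromosome 21, with 15 among 703 (2.13%, 1.20 to 3.49). The intervals of chromosomes 12 and 21 included the 2.69% of all chromosomes, while those of chromosomes 7 and 20 did not. These chromosomes were picked for their yield among chromosomes 1 to 22, and the intervals make no allowance for that choice. Chromosome 20 was below chromosome 7, the chromosome of highest yield, in both steps of the selection. Exactly 1 53BP1 region was present in 4.91% of the compact S5p regions of chromosome 20 (3.85 to 6.17). The share was 7.74% on chromosome 7 (6.73 to 8.85) and 7.50% over all chromosomes. Of these, 35.7% were members on chromosome 20 (24.6 to 48.1) and 57.7% on chromosome 7 (50.4 to 64.7). Over all chromosomes, 1648 of 3467 were, a share inside the interval of chromosome 20. Chromosomes 19 and 9 were also below chromosome 7 in the second step, at 38.9% (32.3 to 45.9) and 41.0% (33.3 to 49.0). The members of chromosome 20 had median folds of 5.96 for 53BP1 and 28.0 for S5p, close to the 6.24 and 29.4 of chromosome 7. Chromosome 1 held the most members (186), with 53BP1 folds from 2.96 to 113, and chromosome 8 held 67. Copy number and read coverage of each chromosome were not known, and their part in these shares was not tested.

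At the weak end, 53BP1 was near the limit of its list at sites with clear S5p. The lowest 53BP1 fold was 2.64, at chr16:67839859-67841067, where S5p fold was 41.1 and S2p fold 4.34. The site chr19:17529849-17531839 had 2.80, 21.7 and 3.69 for 53BP1, S5p and S2p, and chr12:56241357-56243232 had 2.81, 19.2 and 2.79. At chr1:150253330-150255119 and chr6:34663869-34665383 the 53BP1 fold was 2.96, with S5p folds of 9.69 and 25.5. Every member had an S5p −log10 q-value of 5 or more, whereas 1343 (81.5%) did for 53BP1, 1337 (81.1%) for S2p and 1139 (69.1%) for all 3. Of the 45 members above percentile 99 of the S5p list, only 2 fell below percentile 50 of the 53BP1 list. They were chr12:93771056-93771943 (S5p fold 84.7, 53BP1 fold 3.55) and chr1:147400103-147401243 (91.2 and 5.34), and they were picked out once the values were known.

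Strong S2p without strong 53BP1 also occurred. Among the 5 members of largest S2p fold, chr12:58176083-58177366 had an S2p fold of 15.01 with a 53BP1 fold of 4.12 and an S5p fold of 26.96. In chr19:57922218-57923193 these were 13.9, 3.47 and 18.0. The other 3 of the 5 were among the 15 sites of highest 53BP1 fold. A high S2p fold thus went with 53BP1 folds from 3.47 to 82.3 among these 5.

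The widest members were chr6:11093229-11095227, chr2:39350785-39352781 and chr3:158389594-158391589, of 1999, 1997 and 1996 bp, with 53BP1 folds of 6.71, 7.93 and 5.66. The nearest regions left out for S5p width, chr17:5322303-5324304 and chr19:14116340-14118341, were 2002 bp wide and had 53BP1 folds of 7.93 and 17.01. The second of these stood out, at percentile 97.6 of the 53BP1 list and with its 53BP1 summit 690 bp from the S5p summit. With S2p regions of 1500 bp, the members chr13:51483610-51485392 and chr18:11907852-11909769 had 53BP1 folds of 7.93 and 11.3. With S2p regions of 1503 bp, chr17:81008683-81010238 and chr4:53727771-53729311 were left out at 53BP1 folds of 9.44 and 6.03. The narrowest members were chr2:175869688-175870223, chr11:66487744-66488317 and chr7:44079949-44080560, of 536, 574 and 612 bp, and their S5p folds of 4.85, 5.58 and 10.1 were far below the median member.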

How the data were processed

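The authors deposited 1 list of enriched regions per ChIP, per the files' narrowPeak format. Each row gives a region, its fold enrichment (a ratio over background computed by the authors), −log10 p- and q-values as deposited, a deposited score (10 times the −log10 q-value, matching within 1 for 100% of rows), and a summit. Per the submitters' processing notes, the build was hg19 and bcl2fastq 2.20.0.422 was used. How reads were aligned and regions called, and against which control, is not given in the sources used here.

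The 53BP1, S5p and S2p lists held 11605, 62532 and 54601 rows, of which 11370, 61263 and 53422 on chromosomes 1 to 22 were used. Width is end minus start, positions are printed 1-based, and percentiles are by fold within these rows. Depth was unknown, and both the number and the width of regions can grow with it. Members and classes were chosen with earlier results of these data known, and the S5p fold ranges after the values were seen. Regions named are the 10 of largest and 5 of lowest 53BP1 fold, the 5 of largest S5p and of largest S2p fold, the 3 widest and 3 narrowest, those beside each limit, the closest pairs and extreme chromosomes. Others are marked as chosen afterwards, as are ranks 11 to 15. The overlap search was tested on simulated data. No test was run, since each ChIP had 1 library. Planned work on sequence and annotation was not run. Tools were pandas 2.3.3 and numpy 2.4.6 in Python 3.11.15, with scipy 1.17.1 for intervals and matplotlib 3.10.9 for figures.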

Additional observations from a re-analysis of the deposited data

How the results depend on the processing

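All values are descriptions. Only 2 differences between classes were recomputed (53BP1 fold against regions without S2p, S5p fold against regions without 53BP1), and neither changed sign under the alternatives run. Of 59 recomputed values, 40 stayed within the interval of the reported value (for the number of members, within 1.5 times). Limiting all lists to −log10 q-values of 5 or more gave 5.45% of compact S5p regions as members, median folds of 7.17, 32.9 and 4.58 for 53BP1, S5p and S2p, summit distances of 40, 65 and 41 bp (53BP1 to S5p, 53BP1 to S2p, S5p to S2p), 89.96% among the strongest 20% of S5p and an S5p difference from regions without 53BP1 of 27.9; weak regions are left out by construction. An S5p limit of 1500 bp gave 774 members (1.90%), folds of 6.02, 27.4 and 4.06, a 53BP1 to S2p distance of 65 bp and differences of 1.04 (53BP1 fold, from regions without S2p) and 24.2 (S5p fold, from regions without 53BP1). An S2p limit of 1000 bp gave 2.85% and an S2p fold of 4.03. Fewer regions pass narrower limits by construction, and the cause of the other shifts was not tested. Requiring 50% overlap, adding chromosome X, ranking by −log10 q-value and taking the nearest S2p summit left all values within those intervals. No paired analysis was possible because there was only 1 library for each antibody.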

Other observations

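Chromosome X, outside the selection, had 45 compact S5p regions that met the same conditions, out of 988 compact S5p regions (4.55%, exact Clopper-Pearson 95% interval 3.34 to 6.05). Their median folds were 5.29 for 53BP1, 26.7 for S5p and 4.20 for S2p, and the 53BP1 fold ran from 3.08 to 39.8. The 53BP1 to S5p summit distance had a median of 31 bp. The top value, 39.8, is above the 38.5 that was the lowest of the 15 strongest sites on chromosomes 1 to 22.

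Members with weak S5p were few. Only 1 lay in the lower 50% of the S5p list, chr2:118880314-118881851, with an S5p fold of 3.66, a 53BP1 fold of 4.65 and an S2p fold of 2.56, and its 53BP1 summit was 565 bp from the S5p summit. The next, chr19:42924567-42926552 and chr15:90559037-90560241, had S5p folds of 3.84 and 4.35 and 53BP1 folds of 4.10 and 4.32. These regions were chosen after their values were seen.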
